A study of Mus musculus with 15 samples.

Results

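High-fat feeding was compared with low-fat control feeding in the liver of male mice. The comparison used 9 of the 15 deposited liver RNA-seq libraries, chosen by their diet labels: 5 from mice on a diet with 60% fat and 4 from mice on a control diet with 10% fat. All mice were C57BL/6J males labelled wild-type that began their diet at 15 weeks of age and stayed on it for 9 months, and the labels name no transgene, deletion or drug treatment. Another arm of 5 libraries from mice on a ketogenic diet with 89.9% fat entered the gene filter, the scaling and the model but is not described. Control replicate 1, which the submitters named as contaminated, was left out, so the controls are replicates 2 to 5 and the high-fat libraries are replicates 1 to 5. Whether 1 library stands for 1 mouse is not in the labels. The p-values below rest on the spread within diets over the 14 libraries of the model, the ketogenic ones included. Part of that spread may be technical.

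The liver turns dietary fat and sugar into stored triglyceride, ketone bodies and lipoproteins, and burns fatty acids in mitochondria and peroxisomes. Hepatocytes are also secretory cells: they fold, glycosylate and export most plasma proteins through the endoplasmic reticulum (ER), whose chaperone supply is set by the unfolded protein response. Long feeding of a high-fat diet is a widely used model of fatty liver, in which hepatocytes fill with lipid droplets and macrophages and matrix-producing cells can accumulate.

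Libraries held between 16329425 and 25349148 assigned reads. Levels are given as CPM, reads of a gene relative to all reads of its library, after scaling by TMM, a method that aligns libraries on the bulk of their genes. CPM is not corrected for gene length, so it compares 1 gene across libraries and not different genes. High-fat replicate 1 lay between the controls and the rest of its group. On the first principal component of the 500 most variable genes, which carried 56.33% of the variance, it scored 2.698, against 18.4 to 35.4 in high-fat replicates 2 to 5 and -33.2 to -19.5 in the controls. Control replicate 2 stood apart from the other controls on the second component, at -39.1, against 4.64 to 16.8. Marker genes of other cell types were summed as unscaled CPM, which uses plain library totals. The summed markers of pancreatic acinar cells came to 2160 unscaled CPM in control replicate 2, against 27.6 to 197 in control replicates 3 to 5 and 138 to 930 in the high-fat libraries. Its summed neutrophil markers came to 149.8 unscaled CPM, against at most 25.5 in the other 8 libraries. The libraries held the markers of their labelled tissue: the 15 hepatocyte markers together made up 158900 to 177300 unscaled CPM in the controls and 127200 to 149900 in the high-fat libraries.

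**Figure D1:**
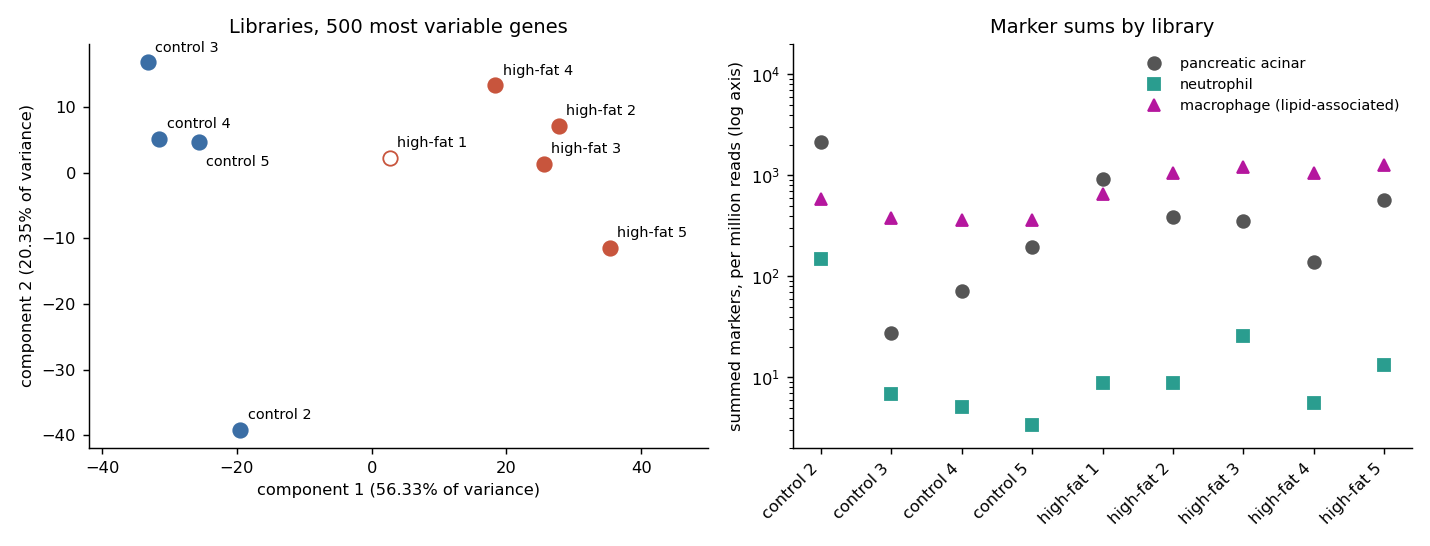
Positions of the 9 libraries on the first 2 principal components of log2 CPM over the 500 most variable genes (left, axes in component units), and summed CPM of pancreatic acinar, neutrophil and macrophage markers per library (right, log axis). High-fat replicate 1 lies between the other high-fat libraries and the controls, and control replicate 2 carries the highest acinar and neutrophil sums.

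Of 14627 genes with enough reads to test, among 56980 in the table, 1749 differed between the diets. The test was the quasi-likelihood test of edgeR, adjusted by Benjamini-Hochberg over all tested genes, and a gene is called here when its adjusted p is under 0.05. In high-fat liver 1016 genes (6.95%) were higher and 733 (5.01%) were lower, while the median log2 fold change of all tested genes was 0.01. With plain library totals in place of TMM that median was 0.13 and the split was 1302 higher and 420 lower. The increases were the larger changes: 478 genes (3.27%) rose at least 2-fold and 145 (0.991%) fell at least 2-fold, and 80 genes rose and 14 fell at least 8-fold. Genes called higher took 3.85 to 4.25% of the reads in the controls and 6.91 to 9.23% in the high-fat libraries. Genes called lower took 7.69 to 8.38% in the controls and 4.74 to 6.04% in the high-fat libraries. In 2375 genes (16.2%) the CPM of the groups did not overlap, of which 1382 (9.45%) were higher and 993 (6.79%) lower in high-fat liver.

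The number of calls depended on single libraries. Without high-fat replicate 1 the test called 1187 genes higher and 958 lower, and without control replicate 4 it called 591 higher and 343 lower. Calls also fell by over 1.5 times, to 659 higher and 418 lower without control replicate 3, to 664 and 468 without control replicate 5, and to 704 and 427 without high-fat replicate 4. Between 443 and 453 genes were called lower without high-fat replicate 3 or 5. High-fat replicate 1 was the high-fat library closest to the control mean in 639 of the 1016 genes called higher and in 447 of the 733 called lower, and its median shift was 65.2% and 62.8% of that of the other high-fat libraries. In all 9 fits that left out 1 library, 509 of the 1016 higher and 281 of the 733 lower calls held. In the gene lists below, counts of 1 to 3 genes often became 0, and some counts of 0 became 1 to 3, when a single library was left out; larger shifts are given beside each list.

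**Figure D2:**
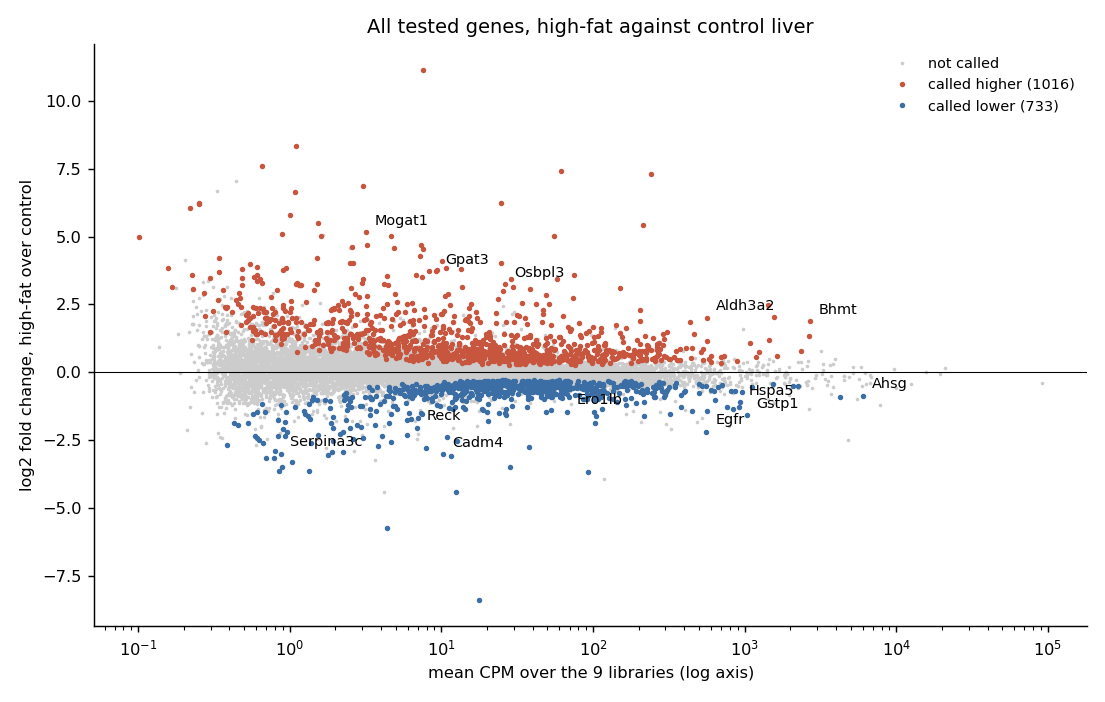
Log2 fold change of high-fat over control liver (vertical axis) against mean CPM over the 9 libraries (horizontal log axis) for the 14627 tested genes. Coloured points are the 1016 genes called higher and the 733 called lower, and named points are genes described in the text. Rises reach further from 0 than falls.

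Several of the genes with the smallest adjusted p act in lipid storage and at membranes. Mogat1 (ENSMUSG00000012187), an acyltransferase that makes diacylglycerol, was at 0.113, 0.102, 0.205 and 0.171 CPM in control replicates 2 to 5 and at 2.25, 6.04, 5.22, 6.96 and 7.41 CPM in high-fat replicates 1 to 5. Gpat3 (ENSMUSG00000029314), which adds the first acyl chain to glycerol phosphate in triglyceride synthesis, was at 2.32, 0.56, 0.871 and 1.03 CPM in the controls and 12.5, 15.2, 18.1, 13.3 and 19.2 CPM in the high-fat libraries. The groups did not overlap for either gene, and high-fat replicate 1 was the lowest high-fat library in both. The log2 fold changes were 5.18 ± 0.39 (SE) for Mogat1 and 3.72 ± 0.31 for Gpat3, each with an adjusted p of 7.82e-06 by edgeR's quasi-likelihood test. Clstn3 (ENSMUSG00000008153), a calsyntenin locus that in fat tissue also gives rise to a lipid droplet protein, changed, with 5.33 to 10.5 CPM in the controls and 47.8 to 75.6 CPM in high-fat liver (log2 fold change 3.08 ± 0.25 (SE), adjusted p = 7.82e-06). Osbpl3, an oxysterol-binding protein homologue that transfers lipids at membrane contact sites, changed, with 3.84 to 5.77 CPM in the controls and 27.6 to 62.7 CPM in high-fat liver (log2 fold change 3.25 ± 0.29 (SE), adjusted p = 1.46e-05). Mtnr1a, a melatonin receptor, rose, with 0.256 to 0.679 CPM in the controls and 3.47 to 6.42 CPM in high-fat liver, 10.9-fold. Uck1, a uridine-cytidine kinase, showed a smaller but even change, with 29.4 to 34.9 CPM in the controls and 66.3 to 77.3 CPM in high-fat liver (log2 fold change 1.14 ± 0.11 (SE), adjusted p = 1.74e-05).

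**Figure D3:**
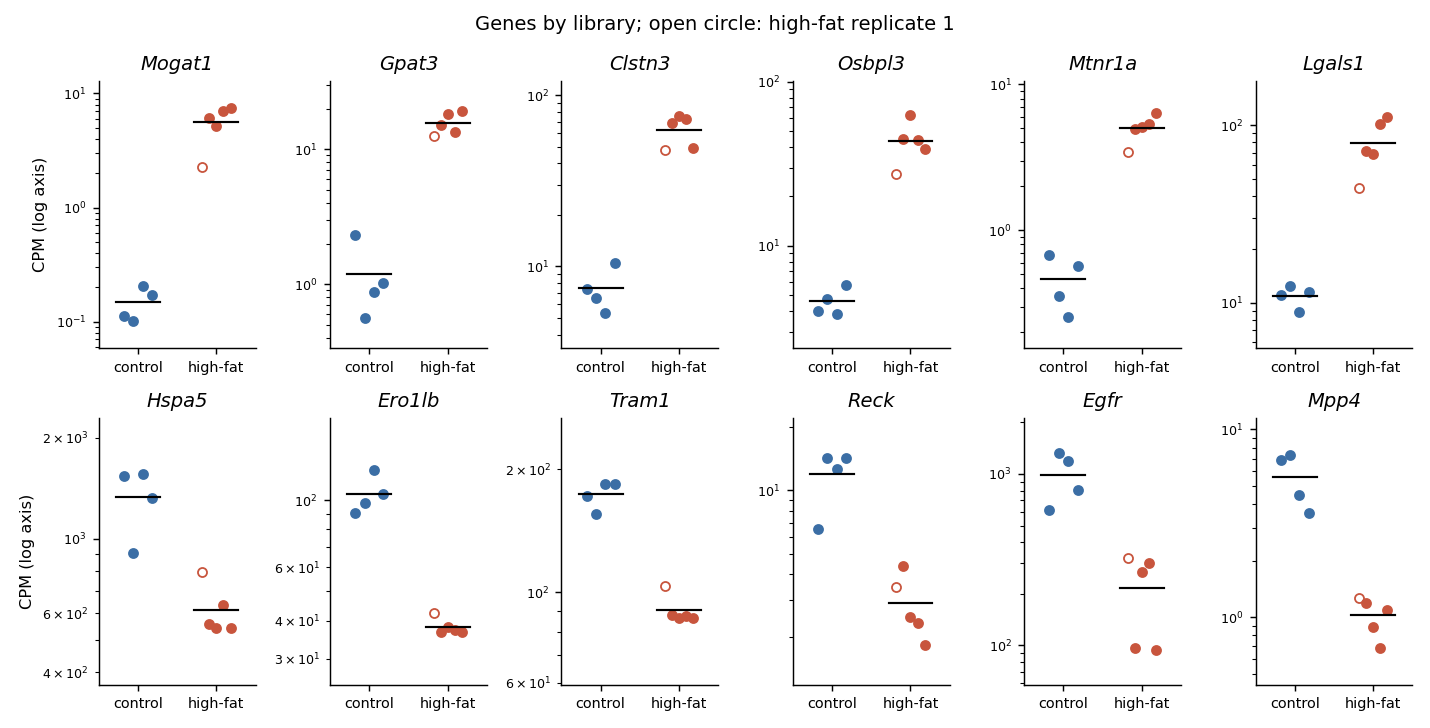
CPM of 12 genes in each of the 9 libraries (log vertical axis). Points are single libraries, bars are group means, and the open symbol marks high-fat replicate 1. The 6 genes that rose stand in the upper row and the 6 that fell in the lower row, and the groups do not overlap in any of them.

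**Figure D4:**
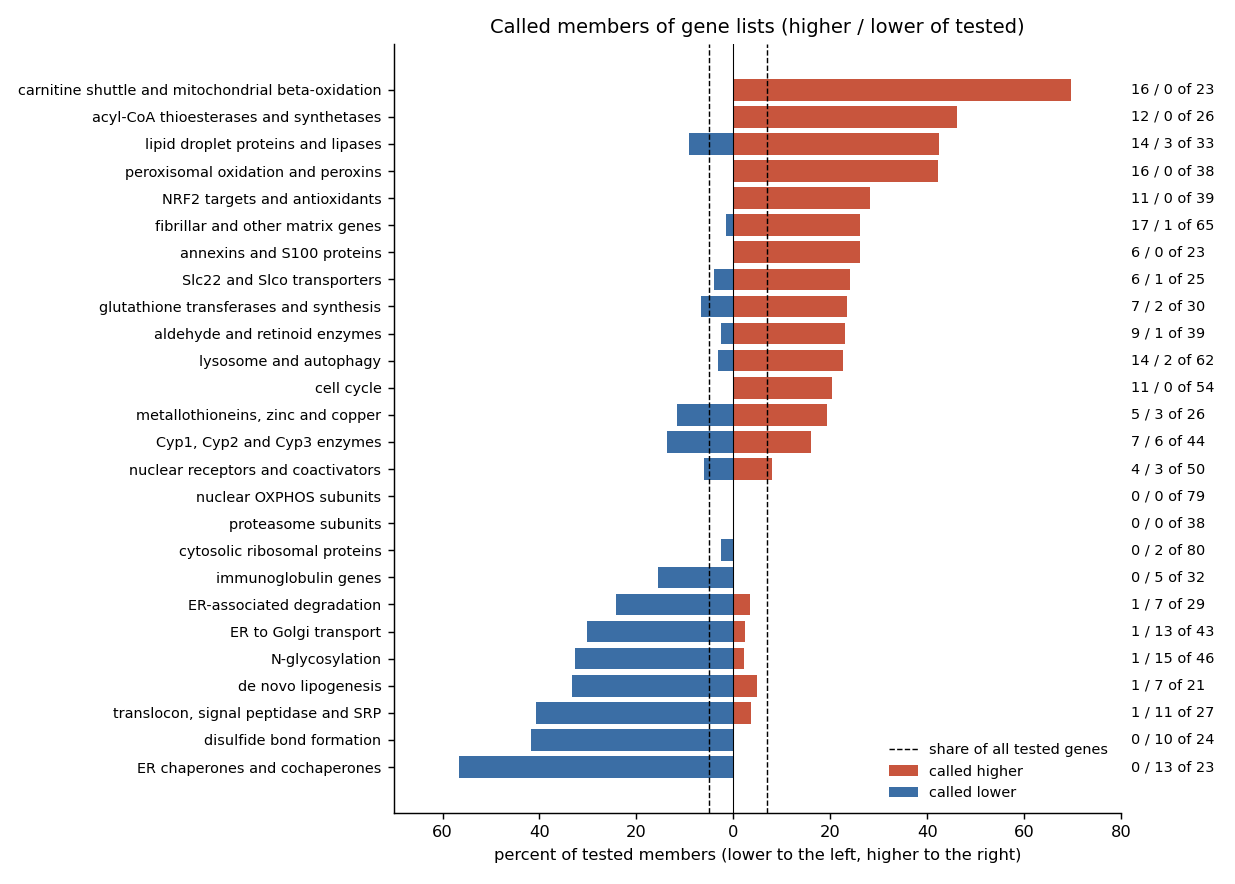
Percent of tested members called higher (right) and lower (left) in 26 gene lists described in the text, with the counts beside each bar; dashed lines mark the 6.95% and 5.01% of all tested genes called higher and lower. The list of the carnitine shuttle and mitochondrial beta-oxidation reaches furthest to the right and the ER chaperones furthest to the left.

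Fat oxidation genes rose in both organelles that carry it out. Of 38 tested genes of peroxisomal oxidation and peroxisome assembly, 16 were higher (42.11%) and 0 lower. Of 23 genes of the carnitine shuttle and mitochondrial beta-oxidation, 16 were higher (69.57%) and 0 lower. Over all tested genes 6.95% were higher and 5.01% lower. The lists' median log2 fold changes were 0.34 and 0.51, beside 0.01 over all tested genes. Crot (ENSMUSG00000003623), which releases shortened acyl groups from peroxisomes as carnitine esters, was at 135, 195, 139.7 and 139.7 CPM in the controls and 277, 411, 405, 491 and 571 CPM in the high-fat libraries. Every high-fat library lay above every control (2.82-fold, log2 fold change 1.497 ± 0.20 (SE), adjusted p = 0.000383). Pex11a, which promotes peroxisome division, rose 3.31-fold to 155 to 229.7 CPM. At the mitochondrial membrane, Slc25a20, the carnitine-acylcarnitine exchanger, rose, with 73 to 82.3 CPM in the controls and 138 to 173 CPM in high-fat liver, and Slc22a5, the carnitine importer of the cell surface, rose, with 11.8 to 16.1 CPM in the controls and 29.7 to 38.7 CPM in high-fat liver. Etfdh, which passes electrons from acyl-CoA dehydrogenases to the respiratory chain, rose 1.73-fold (log2 fold change 0.79 ± 0.12 (SE), adjusted p = 0.000772).

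The respiratory chain held no call. None of 79 tested nuclear genes for oxidative phosphorylation subunits and none of the 13 mitochondrially encoded mRNAs was called, and their median log2 fold changes were 0.04 and 0.00. Counts at an unadjusted p under 0.05 were 2 and 0, while limma voom with sample weights called 3 and 0 and DESeq2 called 0 and 0. Of 41 mitochondrial carriers of the Slc25a family, 6 were higher (14.63%) and 0 lower, beside 6.95% and 5.01% of all tested genes.

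Genes for enzymes that activate fatty acids or release them from coenzyme A rose together. Of 26 tested 12 were higher (46.15%, beside 6.95% of all tested genes) and 0 lower. Acot2, a mitochondrial acyl-CoA thioesterase, was at 1.87, 1.78, 0.615 and 2.28 CPM in the controls and 7.804, 28.6, 25.6, 18.99 and 33.4 CPM in high-fat liver. High-fat replicate 1 was again the lowest of its group and still above every control (log2 fold change 3.81 ± 0.44 (SE), adjusted p = 0.000175). Acss3, a short-chain acyl-CoA synthetase, changed, with 1.697 to 8.39 CPM in the controls and 26.5 to 70.3 CPM in high-fat liver (10.9-fold). Acot2 and Acot4 belong to a cluster of near-identical thioesterase genes, and the sources used here do not give the treatment of reads that fit several copies.

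Among 33 lipid droplet proteins and lipases, 14 were higher and 3 lower (42.42% and 9.09%, beside 6.95% and 5.01% of all tested genes). Without control replicate 4 the higher count was 9. The 3 lower calls were less stable, with 0 without control replicate 5 or high-fat replicates 2, 3 or 5, 1 leaving out control replicates 2, 3 or 4 and 5 without high-fat replicate 1. The 11 adipocyte markers, which include the droplet gene Cidec and the receptor Pparg, summed to 2024 to 2319 unscaled CPM in the controls and 3748 to 4532 in the high-fat libraries. Of the 10 tested, 4 were called higher and 0 lower. None of the 11 was at 0 in all 9 libraries, and their part in these counts was not tested. Most of the sum was Car3, a carbonic anhydrase that hepatocytes also express, at 2085 to 2582 TMM-scaled CPM in the controls and 3212 to 4529 in high-fat liver, without a call (adjusted p = 0.0663). The defining markers Adipoq and Plin1 were low in both groups: Adipoq was at 0.343 to 2.95 and 0.462 to 1.82 CPM, and Plin1 at 0.343 to 3.26 and 0.415 to 1.62 CPM. Car3, Adipoq and Plin1 are named as markers, after their values were seen. Plin4, a coat protein of lipid droplets, was at 6.11 to 13.5 CPM in the controls, at 31.4 CPM in high-fat replicate 1 and at 83.4 to 137 CPM in the other high-fat libraries (log2 fold change 3.43 ± 0.40 (SE), adjusted p = 0.000192). Fitm2, an ER protein needed for droplet budding, rose 1.85-fold, with 45.02 to 50.7 CPM in the controls and 72.9 to 99.6 CPM in high-fat liver. Of 32 genes of membrane phospholipid synthesis, 4 were higher (12.5%, beside 6.95% of all tested genes) and 0 lower. Chpt1, the terminal step of phosphatidylcholine synthesis from diacylglycerol, rose 1.88-fold (log2 fold change 0.91 ± 0.14 (SE), adjusted p = 0.000672), and Pla2g6, a calcium-independent phospholipase, rose 1.83-fold (log2 fold change 0.87 ± 0.16 (SE), adjusted p = 0.00257).

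Genes of de novo fat synthesis went the other way, with 7 of 21 tested lower and 1 higher (median log2 fold change -0.60). These are 33.33% and 4.76%, beside 5.01% and 6.95% of all tested genes. The lower count was 3 without control replicate 4 and 4 leaving out high-fat replicate 4. Acly, which makes cytosolic acetyl-CoA from citrate, was at 1066, 1085, 1343 and 1598 CPM in the controls and 876, 672, 394, 279 and 245 CPM in the high-fat libraries. High-fat replicate 1 was nearest to the controls, and the groups did not overlap (log2 fold change -1.37 ± 0.32 (SE), adjusted p = 0.0122). Aacs, which makes acetoacetyl-CoA for lipid synthesis, fell, with 155 to 339.5 CPM in the controls and 97.8 to 142 CPM in high-fat liver (log2 fold change -1.14 ± 0.24 (SE), adjusted p = 0.00592). Insig2, an ER protein that holds back the lipogenic factor SREBP, rose 4.86-fold, with 40.9 to 87.2 CPM in the controls and 153 to 451 CPM in high-fat liver (log2 fold change 2.28 ± 0.32 (SE), adjusted p = 0.000471). In fructose and glucose use, Tkfc, triokinase, fell, with 974 to 1271 CPM in the controls and 558 to 803 CPM in high-fat liver (log2 fold change -0.68 ± 0.13 (SE), adjusted p = 0.00302), and Gpi1, glucose-6-phosphate isomerase, fell, with 380.1 to 396 CPM in the controls and 217 to 249.7 CPM in high-fat liver (log2 fold change -0.71 ± 0.10 (SE), adjusted p = 0.000366).

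A decrease in transcripts ran through the early secretory pathway. Across 6 lists that follow a secreted protein from the translocon to the Golgi, 192 genes were tested, of which 69 were lower (35.9%, beside 5.01% of all tested genes) and 4 higher. Their median log2 fold change was -0.30, and 162 of the 192 had a log2 fold change below 0. Control replicate 2 held the most pancreatic acinar transcripts of the 9 libraries, and these come from a cell type rich in these same genes. Without control replicate 2, 55 of the list genes were called lower, beside 5.11% of all genes tested then, and the lists' median was -0.30. Acinar markers remained in that fit, at 27.6 to 197 unscaled CPM in control replicates 3 to 5 and 138 to 930 in the high-fat libraries. The lower count was 73 without high-fat replicate 1, 45 without high-fat replicate 3 and 41 without control replicate 4. The part of the acinar RNA in single genes was not tested beyond these counts.

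Chaperones of the ER lumen had the lowest median of the 6 lists. Of 23 tested, 13 were lower (56.52%, beside 5.01% of all tested genes) and 0 higher, with a median log2 fold change of -0.69. The count was 7 without control replicate 4 and 8 leaving out high-fat replicate 3. Hspa5 (ENSMUSG00000026864), the master ER chaperone BiP, was at 1543, 906, 1556 and 1319.7 CPM in the controls and at 796, 557, 542, 633 and 544 CPM in the high-fat libraries. All 5 high-fat libraries lay below the lowest control, control replicate 3 (2.17-fold lower, log2 fold change -1.12 ± 0.25 (SE), adjusted p = 0.0103). Hyou1, an ER member of the Hsp70 superfamily, fell, with 261 to 430 CPM in the controls and 89.9 to 156 CPM in high-fat liver (log2 fold change -1.62 ± 0.28 (SE), adjusted p = 0.00194). Dnajc3, a J-domain cochaperone of Hspa5 that also restrains the kinase PERK, was at 318, 291, 353 and 328 CPM in the controls and 219, 206, 178, 198 and 182 CPM in high-fat liver, again without overlap (log2 fold change -0.72 ± 0.12 (SE), adjusted p = 0.00152). Dnajb11, another J-domain cochaperone, fell 1.96-fold, Manf, a secreted ER stress protein, fell 2.74-fold, and Hspa13 fell 1.83-fold. Hsp90b1, the ER Hsp90, fell, with 822 to 1170 CPM in the controls and 569 to 716 CPM in high-fat liver with an adjusted p of 0.0149 by edgeR. Dnajb9, a J-domain cochaperone that acts on the stress sensor IRE1, was at 76.3 to 89.1 CPM in the controls and 39.5 to 56.3 CPM in high-fat liver, but its adjusted p by edgeR's test was 0.0662.

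The promoters of these genes are known for the ER stress response element (ERSE), a composite site for the factors NF-Y and ATF6 or XBP1. The letters CCAAT, then 9 bases of any kind, then CCACG, were searched on both strands in the RefSeq promoter windows of build GRCm38.p6, which run from 250 bases before to 50 bases after each gene's start. The letters occur in 37 of 27025 genes with a window (0.137%), and in 21 of 10854 tested genes (0.193%). Among genes called lower, 10 of 566 held them (1.77%), and among genes called higher 1 of 748 (0.134%). Of the 11 carriers in the secretory and stress lists, 9 were called lower, and the other two, Alg12 and Derl3, had log2 fold changes of -0.55 and -0.76 without passing the test. The ERSE was 1 of 8 motifs searched. The other ones were ERSE-II, the unfolded protein response element, a PPAR-RXR direct repeat, the antioxidant response element, the carbohydrate response element, the amino acid response element and the CCAAT box alone. ERSE-II was in 2 of the genes called lower (0.353%) and 0 of those called higher, beside 9 of all tested genes (0.083%). The unfolded protein response element was in 2.297% and 1.07%, beside 0.995% of tested genes. The antioxidant element was in 16.254% of the lower and 15.241% of the higher genes, beside 16.731% of tested genes, and the amino acid element in 0.883% and 1.07%, beside 0.802%. The CCAAT box alone was in 44.523% and 44.118%, beside 42.758%. The direct repeat and the carbohydrate element were in 0 genes of either direction, but these searches could show little. As written, the direct repeat was in only 6 of the 10854 tested genes (0.055%). The carbohydrate element was in 0 of all 27025 genes with a window. Alg12 and Creld2 lie head to head and share 1 site. Outside these lists, of 10 carriers 1 was lower (Hnrnpa3) and 1 higher (Acnat2). Among lower genes with a window, the letters were in 6 of 10 chaperone, 2 of 10 disulfide bond and 1 of 7 ER-associated degradation genes. They were in 0 of 8 translocon, 0 of 12 N-glycosylation, 0 of 8 ER to Golgi and 0 of 6 stress signalling genes. For the 9 lower genes of these lists picked by holding the letters, sites are shown with up to 30 bases on either side. Capitals mark the fixed letters of the element, on the gene's own strand from 5′ to 3′. Pdia6, Syvn1, Alg12, Derl3, Hnrnpa3 and Acnat2 are named for the element, after their values were seen.
Hspa5 (chr2:34771995-34772073, plus strand): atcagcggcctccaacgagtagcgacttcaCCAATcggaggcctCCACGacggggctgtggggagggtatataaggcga
Dnajc3 (chr14:118937797-118937875, plus strand): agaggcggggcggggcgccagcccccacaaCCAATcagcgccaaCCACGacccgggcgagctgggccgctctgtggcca
Hsp90b1 (chr10:86705503-86705581, minus strand): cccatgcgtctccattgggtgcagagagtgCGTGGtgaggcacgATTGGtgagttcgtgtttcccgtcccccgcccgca
Calr (chr8:84847045-84847123, minus strand): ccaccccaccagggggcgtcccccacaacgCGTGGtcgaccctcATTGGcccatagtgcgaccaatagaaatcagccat
Canx (chr11:50325770-50325848, minus strand): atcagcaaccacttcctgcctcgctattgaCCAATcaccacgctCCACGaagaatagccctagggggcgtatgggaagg
Creld2 (chr15:88819490-88819568, plus strand): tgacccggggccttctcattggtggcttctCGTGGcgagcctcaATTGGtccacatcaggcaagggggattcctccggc
Pdia6 (chr12:17266461-17266539, plus strand): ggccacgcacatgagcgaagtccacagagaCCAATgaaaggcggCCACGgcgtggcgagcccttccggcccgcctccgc
Ero1lb (chr13:12565652-12565730, plus strand): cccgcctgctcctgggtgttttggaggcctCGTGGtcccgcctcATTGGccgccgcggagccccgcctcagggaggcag
Syvn1 (chr19:6046502-6046575, plus strand): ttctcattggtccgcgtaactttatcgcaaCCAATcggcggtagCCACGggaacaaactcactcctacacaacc

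In Hspa5, Dnajc3, Canx, Pdia6 and Syvn1 the element reads CCAAT first, and in Calr, Creld2, Ero1lb and the shown copy of Hsp90b1 it stands in the reverse orientation, reading CGTGG first. Hsp90b1 holds a further copy at position -212 from the start. The first bases of the shown sites lie between positions -201 (Ero1lb) and -44 (Syvn1) from the start. A match of letters is a description and does not show that a factor binds there. Their log2 fold changes ran from -0.39 ± 0.10 (Canx, a membrane lectin chaperone, adjusted p = 0.0178 by edgeR) to -1.48 ± 0.39 (Creld2, adjusted p = 0.027 by edgeR). Calr, the soluble partner of Canx, fell, with 599 to 944 CPM in the controls and 436 to 560 CPM in high-fat liver (log2 fold change -0.68 ± 0.18 (SE), adjusted p = 0.0211). Several of these calls were lost by edgeR's test when a single library was left out. Hsp90b1 lost its call without control replicate 4 (adjusted p = 0.0522), Calr without control replicates 2 or 4 or high-fat replicates 2 or 3 (adjusted p of 0.0505 to 0.0738) and Canx without control replicates 4 or 5 or high-fat replicate 3 (adjusted p of 0.0503 to 0.0639). Creld2 lost its call without control replicates 2 or 4 or high-fat replicates 2, 3, 4 or 5 (adjusted p of 0.0557 to 0.0819), and Syvn1 without control replicates 2, 3 or 4 or high-fat replicates 2, 3, 4 or 5 (adjusted p of 0.0514 to 0.0937). Outside the lists, Hnrnpa3 lost its call without control replicates 2, 3 or 4 or high-fat replicates 2, 3, 4 or 5 (adjusted p of 0.0593 to 0.0948) and Acnat2 without control replicates 3, 4 or 5 or high-fat replicates 2, 3, 4 or 5 (adjusted p of 0.0572 to 0.124). Without control replicate 2, 6 of the 21 tested carriers were called lower, and the count was 6 without high-fat replicate 2, 5 without high-fat replicate 3 and 4 without control replicate 4.

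**Figure D5:**
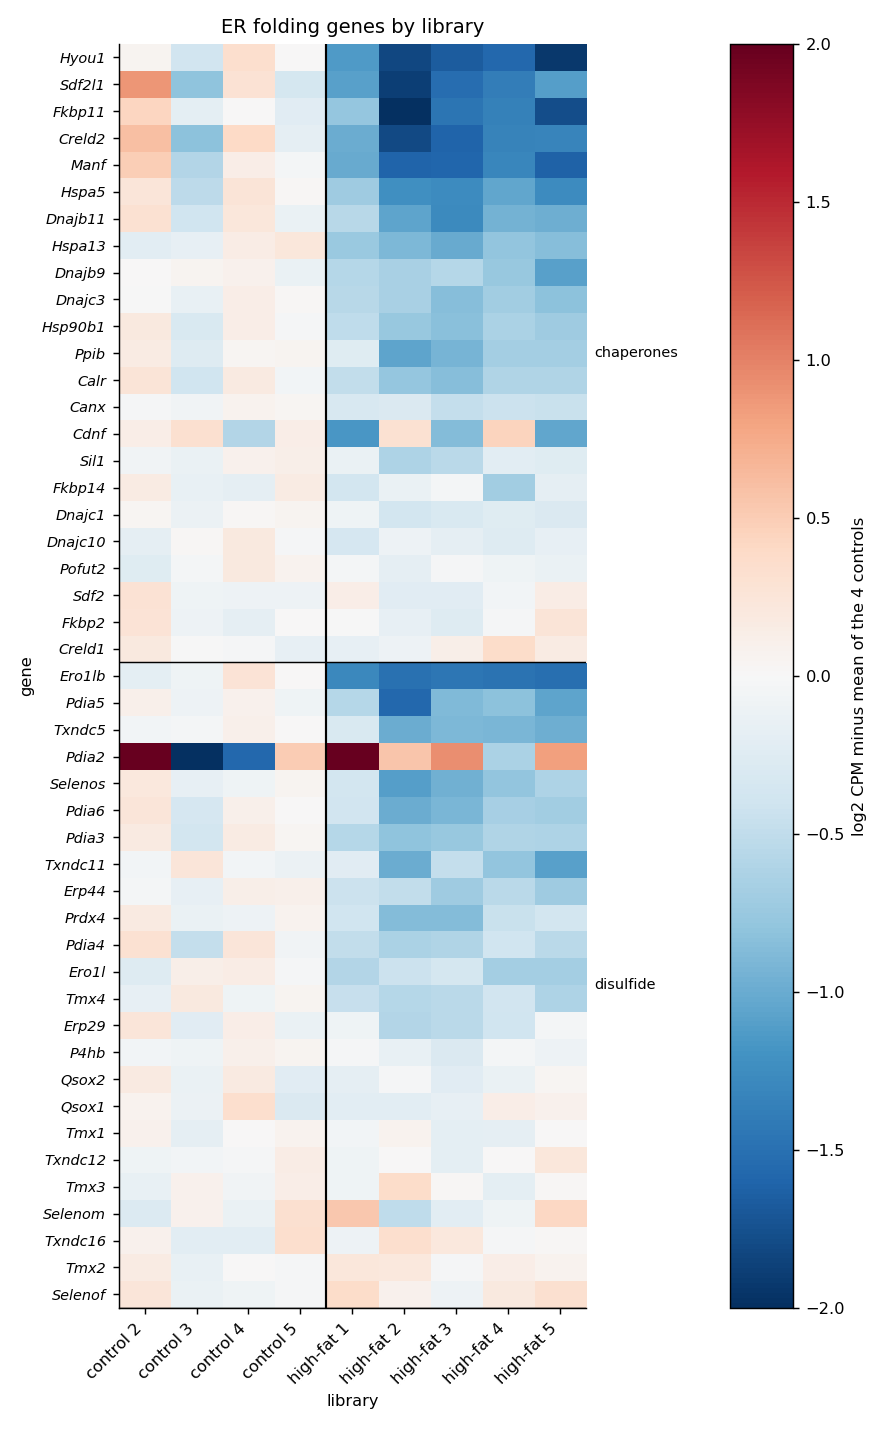
Log2 CPM of all 47 tested genes of the ER chaperone and disulfide bond lists in each of the 9 libraries, relative to the mean of the 4 controls (colour, log2 units), ordered within each list by log2 fold change. In the high-fat columns 199 of 235 values lie below 0 (blue), and high-fat replicate 1 is the highest high-fat library in 28 of the 47 rows. Colours saturate at 2 log2 units in either direction, and Pdia2, an isomerase of the pancreas, goes past them in both groups (outside the rule for named genes, chosen after its values were seen).

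Genes of oxidative folding followed the chaperones, with 10 of 24 tested lower (41.67%, beside 5.01% of all tested genes) and 0 higher. Ero1lb (ENSMUSG00000057069), the oxidase now called Ero1b that recharges protein disulfide isomerases, was at 90.9, 97.5, 125 and 105 CPM in the controls and 42.3, 36.7, 38.3, 37.3 and 36.6 CPM in the high-fat libraries. The high-fat values lay close together and below the lowest control (2.74-fold lower, log2 fold change -1.45 ± 0.15 (SE), adjusted p = 4.09e-05). Its relative Ero1l, or Ero1a, fell 1.46-fold (log2 fold change -0.55 ± 0.12 (SE), adjusted p = 0.00674). Erp44, which retains such enzymes in the early secretory pathway, fell, with 85.2 to 103 CPM in the controls and 58.2 to 70.6 CPM in high-fat liver (log2 fold change -0.58 ± 0.11 (SE), adjusted p = 0.00396).

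Transcripts for entry into the ER were lower at several points, and entry itself was not measured. Of 27 genes of the translocon, signal peptidase and signal recognition particle, 11 were lower and 1 higher. These are 40.74% and 3.7%, beside 5.01% and 6.95% of all tested genes. Tram1, a translocon partner that helps nascent chains enter the membrane, was at 172, 156, 184 and 184 CPM in the controls and 104, 87.9, 86.6, 87.6 and 86.1 CPM in high-fat liver. The gap between the groups was wider than the spread within either (log2 fold change -0.94 ± 0.11 (SE), adjusted p = 0.000148). Ssr1 and Ssr3, subunits of the translocon-associated protein complex, fell 1.599-fold and 1.54-fold, and Spcs3, a signal peptidase subunit, fell 1.47-fold.

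Of 46 N-glycosylation genes 15 were lower and 1 higher (32.61% and 2.17%, beside 5.01% and 6.95% of all tested genes). The lower count was 7 without control replicates 4 or 5 and 8 leaving out high-fat replicate 3. It was 9 without control replicate 2 or high-fat replicates 2 or 5. Stt3a, the catalytic subunit of the oligosaccharyltransferase that acts during translation, fell, with 119 to 140.4 CPM in the controls and 72.2 to 91.2 CPM in high-fat liver (log2 fold change -0.71 ± 0.12 (SE), adjusted p = 0.00151). Uggt1, the folding sensor that marks misfolded glycoproteins for another folding round, fell, with 103 to 152 CPM in the controls and 45.96 to 77.7 CPM in high-fat liver (log2 fold change -0.97 ± 0.15 (SE), adjusted p = 0.000914). Mogs, the first glucosidase to trim the glycan, fell 1.84-fold and the Golgi enzyme Mgat2 fell 1.87-fold.

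In transport from the ER to the Golgi, 13 of 43 tested genes were lower and 1 higher (30.23% and 2.33%). The lower count was 8 without control replicate 4. Sec23b, a coat subunit of export vesicles, fell, with 59.6 to 80.6 CPM in the controls and 32.9 to 52.1 CPM in high-fat liver (log2 fold change -0.91 ± 0.18 (SE), adjusted p = 0.00498), and the cargo receptors Tmed2 and Tmed3 fell 1.34-fold and 1.96-fold. ER-associated degradation had 7 lower and 1 higher of 29 (24.14% and 3.45%), beside 5.01% and 6.95% of all tested genes. Its lower count was 2 without high-fat replicates 3, 4 or 5 and 3 leaving out control replicate 4. It was 4 without control replicates 3 or 5 or high-fat replicate 2. Edem2, which trims mannose from terminally misfolded glycoproteins, fell, with 59.5 to 74.4 CPM in the controls and 30.9 to 44.97 CPM in high-fat liver (log2 fold change -0.83 ± 0.15 (SE), adjusted p = 0.00201).

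The regulators and downstream genes of the unfolded protein and integrated stress responses moved in both directions. Of 33 tested, 7 were lower and 3 higher (21.21% and 9.09%), beside 5.01% and 6.95% of all tested genes. Their median log2 fold change was -0.06. The lower count was 4 without control replicate 4 or high-fat replicates 4 or 5. Xbp1, the transcription factor that drives ER expansion, was at 295, 284, 267 and 226 CPM in the controls and 175, 118, 145, 219 and 142 CPM in high-fat liver. High-fat replicate 4 came close to the lowest control, and the groups did not overlap (log2 fold change -0.75 ± 0.16 (SE), adjusted p = 0.00688). Counts per gene do not separate its spliced from its unspliced form. Wfs1, an ER membrane protein mutated in Wolfram syndrome, fell 1.95-fold (log2 fold change -0.96 ± 0.18 (SE), adjusted p = 0.00334). In the amino acid branch, Atf4, its transcription factor, was at 97.9 to 137 CPM in the controls and 62.3 to 78.2 CPM in high-fat liver (log2 fold change -0.67 ± 0.17 (SE), adjusted p = 0.0174; 0.051 without control replicate 2). Asns, asparagine synthetase and a classic target of Atf4, was at 12.8, 6.36, 7.94 and 1.54 CPM in the controls and 1.91, 0.652, 1.17, 0.567 and 1.19 CPM in high-fat liver. Control replicate 5 lay within the high-fat range (log2 fold change -2.71 ± 0.65 (SE), adjusted p = 0.0161). The 3 genes called higher were Fgf21, Gdf15 and Vldlr. Fgf21, a fasting and stress hormone of the liver, was at 1.07, 0.56, 1.18 and 0.799 CPM in the controls and 2.49, 6.16, 4.04, 6.44 and 5.77 CPM in high-fat liver (log2 fold change 2.46 ± 0.37 (SE), adjusted p = 0.000669). Gdf15, another stress hormone, had 1.199 to 4.07 CPM in the controls and 5.43 to 27.6 CPM in high-fat liver (log2 fold change 2.87 ± 0.51 (SE), adjusted p = 0.00302), and Vldlr, a lipoprotein receptor, rose 4.45-fold (log2 fold change 2.15 ± 0.45 (SE), adjusted p = 0.00642). The groups did not overlap for any of these 3 genes. Beside these, none of 38 proteasome subunits was called (1 at an unadjusted p under 0.05, 2 by voom and 0 by DESeq2). Of 80 cytosolic ribosomal protein genes 2 were lower (2.5%) and 0 higher, with a median log2 fold change of -0.38. The lower count was 10 without high-fat replicate 1 and 0 when any other library was left out. In 20 of the 80 every high-fat library lay below every control, and in 0 above, beside 6.79% and 9.45% of all tested genes. Their summed TMM-scaled CPM was 14909 to 20505 in the controls and 10152 to 15452 in high-fat liver.

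Most genes for secreted plasma proteins were not called, and the calls went in both directions. Of 38 acute phase genes 7 were higher and 1 lower (18.42% and 2.63%). Of 46 coagulation and fibrinolysis genes 6 were higher and 4 lower (13.04% and 8.7%), and of 45 complement genes 2 were higher and 5 lower (4.44% and 11.11%). Over all tested genes the shares were 6.95% and 5.01%, and several of these list shares lie near or below them. The lists' median log2 fold changes were -0.12, -0.25 and -0.17. Summed TMM-scaled CPM of acute phase genes ran from 178096 to 209692 in the controls and 129277 to 167856 in high-fat liver. The sums were 31777 to 42248 and 23826 to 31621 for coagulation, and 21294 to 32082 and 17750 to 22328 for complement. Genes without overlap numbered 3 lower and 6 higher, 9 and 8, and 11 and 5 in these lists. Over all tested genes these shares were 6.79% and 9.45%. The higher acute phase count was 1 without control replicate 3, 2 leaving out control replicate 5 or high-fat replicates 3 or 5, 3 without high-fat replicate 4 and 4 leaving out control replicate 2. The lower coagulation count was 1 without control replicate 4 or high-fat replicates 3 or 5, 2 leaving out control replicate 5 or high-fat replicate 2 and 7 without high-fat replicate 1, and the lower complement count was 2 without control replicate 4 and 3 leaving out control replicates 3 or 5 or high-fat replicates 2, 3 or 5. Ahsg (ENSMUSG00000022868), which encodes the plasma glycoprotein fetuin-A, was at 8065, 7668, 8619 and 7756 CPM in the controls and 6359.6, 3548, 3254, 4605 and 4312 CPM in the high-fat libraries. High-fat replicate 1 was closest to the controls and still below them (log2 fold change -0.86 ± 0.20 (SE), adjusted p = 0.0124). The terminal complement component C9 fell, with 530.4 to 817 CPM in the controls and 323 to 466 CPM in high-fat liver (log2 fold change -0.77 ± 0.18 (SE), adjusted p = 0.0107), and the clotting protease F7 fell, with 146 to 162 CPM in the controls and 67.2 to 120.1 CPM in high-fat liver (log2 fold change -0.90 ± 0.20 (SE), adjusted p = 0.00917). Serpina7, the thyroxine carrier of plasma, rose 3.48-fold, with 23.98 to 40.4 CPM in the controls and 79.4 to 142 CPM in high-fat liver (log2 fold change 1.798 ± 0.30 (SE), adjusted p = 0.00186). None of 18 major urinary protein genes, a family of near-identical copies, was called (3 at an unadjusted p under 0.05, 1 by voom and 0 by DESeq2), with a median log2 fold change of -0.61. Its member Mup3 was at 8352, 7005, 7028 and 7760.1 CPM in the controls and 6421, 3379, 2685, 4059 and 2565 CPM in high-fat liver. These did not overlap, but the adjusted p by edgeR's test was 0.116, and 0.0444 without high-fat replicate 1.

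Of 51 tested genes of MAP kinase signalling, AP-1 and the immediate early response, 11 were higher and 1 lower, the lower one being Egfr. These are 21.57% and 1.96%, beside 6.95% and 5.01% of all tested genes. The higher count was 6 without control replicate 5 and 7 leaving out control replicates 3 or 4 or high-fat replicates 2 or 5. Egfr (ENSMUSG00000020122), the epidermal growth factor receptor, was at 615, 1332, 1198 and 808 CPM in the controls and 324, 96.6, 268, 302 and 93.9 CPM in the high-fat libraries. High-fat replicates 2 and 5 were the lowest, and no high-fat library reached the controls (4.55-fold lower, log2 fold change -2.19 ± 0.51 (SE), adjusted p = 0.0142). Lepr, the leptin receptor, was at 11.3, 26.8, 16.3 and 24.4 CPM in the controls and 3.76, 3.73, 4.56, 3.603 and 2.98 CPM in high-fat liver (log2 fold change -2.400 ± 0.48 (SE), adjusted p = 0.00569). Lifr, the receptor of leukaemia inhibitory factor, fell, with 205 to 287 CPM in the controls and 77.5 to 154 CPM in high-fat liver (log2 fold change -1.22 ± 0.21 (SE), adjusted p = 0.00168). Erbb3, a partner receptor of the Egfr family, rose 1.81-fold (log2 fold change 0.85 ± 0.18 (SE), adjusted p = 0.00733), and Btc, an Egfr ligand, rose, with 0.407 to 1.31 CPM in the controls and 1.91 to 3.18 CPM in high-fat liver (log2 fold change 1.86 ± 0.32 (SE), adjusted p = 0.00187). Ihh, the hedgehog ligand, fell 2.73-fold (log2 fold change -1.45 ± 0.20 (SE), adjusted p = 0.000422).

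In the growth hormone and IGF axis 2 of 23 tested genes were higher and 2 lower (8.7% each way, beside 6.95% and 5.01% of all tested genes). Stat5a, a transducer of growth hormone signals, was at 14.3, 10.9, 10.7 and 9.82 CPM in the controls and 17.3, 27.8, 24.5, 26.96 and 23.2 CPM in high-fat liver, with no overlap (log2 fold change 1.07 ± 0.17 (SE), adjusted p = 0.000943). Igfbp2, an IGF-binding protein made by hepatocytes, was at 635, 561, 372 and 443 CPM in the controls and 341, 114, 93.1, 160.2 and 158 CPM in high-fat liver. Its call (log2 fold change -1.54 ± 0.42 (SE), adjusted p = 0.0284) was lost when any library but control replicate 4 or high-fat replicate 1 was left out, at adjusted p of 0.0525 to 0.0705. Igf1 was at 507 to 639 CPM in the controls and 388 to 506 CPM in high-fat liver (log2 fold change -0.45 ± 0.13 (SE), adjusted p = 0.0385), a call lost without any 1 of control replicates 3 to 5 or high-fat replicates 2 to 5, at 0.0649 to 0.119. Bcl6, a repressor under growth hormone control, varied within both groups, from 4.74 to 85.3 CPM and from 7.51 to 76.3 CPM, and did not pass the test (log2 fold change -0.17 ± 0.88 (SE), adjusted p = 0.925).

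Nuclear receptors changed in a few members, with 4 higher and 3 lower of 50 tested. These are 8.0% and 6.0%, beside 6.95% and 5.01% of all tested genes. The higher count was 2 without control replicates 4 or 5 or high-fat replicate 3, and the lower count was 1 without control replicate 3. Pparg (ENSMUSG00000000440), the receptor that drives lipid storage genes, was at 2.88, 6.21, 4.405 and 9.08 CPM in the controls and 13.99, 23.9, 21.3, 29.8 and 19.6 CPM in high-fat liver (log2 fold change 1.95 ± 0.28 (SE), adjusted p = 0.000618). The groups did not overlap, and high-fat replicate 1 was the lowest of its group. Ppara, the receptor for which peroxisomal oxidation genes are known targets, was at 57.1, 115, 125 and 117 CPM in the controls and 130.5, 138, 170.1, 137 and 77.9 CPM in high-fat liver and did not pass the test (log2 fold change 0.34 ± 0.27 (SE), adjusted p = 0.447). Hnf4a, a master factor of hepatocyte genes, was at 608 to 1018 CPM in the controls and 545 to 686 CPM in high-fat liver, at the edge of the threshold (log2 fold change -0.55 ± 0.17 (SE), adjusted p = 0.0506); its adjusted p was 0.0174 leaving out control replicate 2 and 0.0376 leaving out high-fat replicate 1. The bile acid receptor Nr1h4 was at 127 to 195 CPM in the controls and 137 to 155 CPM in high-fat liver (log2 fold change -0.17 ± 0.13 (SE), adjusted p = 0.434). Among liver transcription factors Klf11, a Krüppel-like factor, rose 2.598-fold (log2 fold change 1.38 ± 0.29 (SE), adjusted p = 0.00677).

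Enzymes of aldehyde and retinoid metabolism rose in 9 of 39 tested genes and fell in 1 (23.08% and 2.56%). Over all tested genes the shares were 6.95% and 5.01%. Aldh3a2, which oxidises fatty aldehydes, was at 169, 238, 151 and 284 CPM in the controls and 633, 951, 909, 910 and 854 CPM in the high-fat libraries. Every high-fat library lay above every control (4.05-fold, log2 fold change 2.02 ± 0.19 (SE), adjusted p = 1.86e-05). Aldh1a1 and Aldh1a7, close relatives that oxidise retinal and other aldehydes, rose 2.26-fold and 2.504-fold, and Rdh16, a retinol dehydrogenase, rose 2.51-fold (log2 fold change 1.33 ± 0.23 (SE), adjusted p = 0.00214). Organic ion transporters of the Slc22 and Slco families had 6 higher and 1 lower of 25, led by Slc22a29 at 0.679 to 0.871 CPM in the controls and 2.95 to 11.9 CPM in high-fat liver (log2 fold change 3.23 ± 0.42 (SE), adjusted p = 0.000291).

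Cytochrome P450 genes of the drug-metabolising families split. Of 44 tested members of Cyp1 to Cyp3, 7 were higher and 6 lower (15.91% and 13.64%, beside 6.95% and 5.01% of all tested genes). The higher count was 4 without control replicate 3 or 4. The lower count was 2 without control replicate 4 and 3 leaving out control replicate 5 or high-fat replicate 3. Within the Cyp2c cluster Cyp2c38 rose, with 8.76 to 20.6 CPM in the controls and 34.1 to 119.9 CPM in high-fat liver (log2 fold change 2.53 ± 0.44 (SE), adjusted p = 0.00286) and Cyp2c39 rose 8.73-fold, while Cyp2c40 fell, with 4.97 to 14.5 CPM in the controls and 1.79 to 3.97 CPM in high-fat liver (log2 fold change -1.72 ± 0.36 (SE), adjusted p = 0.00653). Cyp2c38, Cyp2c39 and Cyp2c40 belong to a list of 32 tested genes known to be higher in female than male mouse liver, of which, in these males, 18 were higher and 1 lower (56.25% and 3.12%, beside 6.95% and 5.01% of all tested genes; median log2 fold change 1.77). The list shares members with the fat lists, Vldlr among them. Of the same list, Cyp2b9 was at 0.17, 0.153, 1.18 and 1.03 CPM in the controls and 43.5, 156, 61.7, 112 and 182 CPM in high-fat liver (log2 fold change 7.44 ± 0.87 (SE), adjusted p = 0.000343). Cyp2b13 had no reads in the controls and was at 1.503, 15.1, 1.64, 15.1 and 34.9 CPM in high-fat liver (adjusted p = 0.0273), a call lost without control replicates 3, 4 or 5 or high-fat replicate 4 (adjusted p of 0.0503 to 0.0646). These copies are alike in sequence, so reads could be split between them in the deposited counts. Among steroid enzymes Cyp17a1, a steroid hydroxylase and lyase, rose, with 12.2 to 18.5 CPM in the controls and 41.8 to 105 CPM in high-fat liver (log2 fold change 2.14 ± 0.34 (SE), adjusted p = 0.00141), and Srd5a1, a steroid reductase, fell, with 86.6 to 102 CPM in the controls and 38.3 to 60.2 CPM in high-fat liver (log2 fold change -0.90 ± 0.18 (SE), adjusted p = 0.00448).

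In the glutathione and antioxidant lists more genes were higher than lower, and most were not called. Of 30 glutathione genes 7 were higher and 2 lower (4 higher without control replicate 3 or 4), and of 39 antioxidant genes 11 were higher and 0 lower (6 without control replicates 3 or 5 and 7 leaving out control replicate 4), beside 6.95% and 5.01% of all tested genes. These are 23.33% and 28.21% higher, and 6.67% of the glutathione genes lower. Gsta2, a glutathione transferase, was at 5.66, 6.41, 5.02 and 9.08 CPM in the controls and 10.4, 22.04, 18.98, 24.98 and 52.7 CPM in high-fat liver, where replicate 5 was the highest and replicate 1 the lowest (log2 fold change 1.98 ± 0.41 (SE), adjusted p = 0.00733). Mgst3, a microsomal transferase, had the same order at its ends, from 16.2 CPM in high-fat replicate 1 to 46.7 CPM in replicate 5 (log2 fold change 1.42 ± 0.24 (SE), adjusted p = 0.00143). Sod3, the extracellular superoxide dismutase, rose, with 26.6 to 27.9 CPM in the controls and 36.1 to 68.04 CPM in high-fat liver (log2 fold change 1.04 ± 0.14 (SE), adjusted p = 0.000358). The 2 lower genes were Gstp1 and Gstp2, near-identical neighbours of the pi class. Gstp1 was at 1828, 1468, 1791 and 1537 CPM in the controls and 839, 342, 434, 619.6 and 524 CPM in high-fat liver, 3.002-fold lower (log2 fold change -1.59 ± 0.37 (SE), adjusted p = 0.0125). Gstp2 was at 11.9 to 16.7 CPM in the controls and 4.27 to 7.41 CPM in high-fat liver (log2 fold change -1.24 ± 0.27 (SE), adjusted p = 0.00847).

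Metal handling genes changed in both directions, 5 higher and 3 lower of 26 tested (19.23% and 11.54%). Over all tested genes the shares were 6.95% and 5.01%. The lower count was 1 without control replicate 4 or high-fat replicate 4. Mt1 (ENSMUSG00000031765), a zinc-binding metallothionein, was at 13.1, 8.09, 13.1 and 11.6 CPM in the controls and 22.9, 42.2, 45.9, 31.3 and 102 CPM in the high-fat libraries (log2 fold change 2.09 ± 0.40 (SE), adjusted p = 0.00487). Mt2 was at 2.09, 2.09, 3.33 and 2.798 CPM in the controls and 10.2, 15.2, 17.6, 13.6 and 56.3 CPM in high-fat liver (log2 fold change 3.13 ± 0.61 (SE), adjusted p = 0.00575). High-fat replicate 5 was the highest for both genes, and all 5 high-fat libraries lay above the controls. Slc39a4, a zinc importer, rose, with 8.91 to 20.4 CPM in the controls and 29.6 to 50.98 CPM in high-fat liver (log2 fold change 1.37 ± 0.24 (SE), adjusted p = 0.00239), and Slc30a1, the zinc exporter of the cell surface, fell, with 59.3 to 73.1 CPM in the controls and 31.8 to 47.98 CPM in high-fat liver (log2 fold change -0.75 ± 0.13 (SE), adjusted p = 0.00176).

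In methionine, folate and cysteine metabolism, Bhmt (ENSMUSG00000074768), which rebuilds methionine from homocysteine and betaine, was at 1726, 719, 562 and 1271 CPM in the controls and 3902, 4084, 3152, 5187 and 3582 CPM in the high-fat libraries. The controls differed among themselves, yet none reached the high-fat libraries (3.72-fold, log2 fold change 1.897 ± 0.31 (SE), adjusted p = 0.00122). Suox, sulfite oxidase, rose 1.79-fold (log2 fold change 0.84 ± 0.15 (SE), adjusted p = 0.00194). In the list of NAD and tryptophan metabolism, Aox1, aldehyde oxidase, rose 1.999-fold (log2 fold change 0.999 ± 0.19 (SE), adjusted p = 0.00297).

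Some genes of other cell types and of cell structure rose in another set. Because whole liver was sequenced, more cells of a type and more RNA per cell cannot be told apart in what follows. Of 23 annexin, S100 and galectin genes 6 were higher (26.09%) and 0 lower (3 higher without control replicate 3 or 4). Lgals1 (ENSMUSG00000068220), galectin-1, was at 11.03, 12.5, 8.81 and 11.4 CPM in the controls and 44.3, 71.6, 68.4, 101 and 112 CPM in high-fat liver, without overlap (7.26-fold, log2 fold change 2.86 ± 0.24 (SE), adjusted p = 7.82e-06). S100a10, the partner of annexin A2, rose 4.17-fold (log2 fold change 2.06 ± 0.29 (SE), adjusted p = 0.000504), and Anxa5, a phospholipid-binding annexin, changed, with 48.9 to 57.2 CPM in the controls and 73.99 to 218 CPM in high-fat liver (log2 fold change 1.62 ± 0.30 (SE), adjusted p = 0.00319). Krt8, the keratin of hepatocytes and bile duct cells, rose, with 129 to 149.9 CPM in the controls and 263 to 458 CPM in high-fat liver (log2 fold change 1.26 ± 0.18 (SE), adjusted p = 0.000457), and the tubulin Tubb6 rose 3.18-fold (log2 fold change 1.67 ± 0.21 (SE), adjusted p = 0.000183). Of 50 actin, tubulin and motor genes, Tubb6 among them, 2 were higher and 1 lower (4.0% and 2.0%). Counts of that list with a library left out are not given. Lysosome and autophagy genes had 14 higher and 2 lower of 62 (22.58% and 3.23%). Over all tested genes the shares were 6.95% and 5.01%. Hexa, a lysosomal hexosaminidase subunit, rose 1.97-fold (log2 fold change 0.98 ± 0.15 (SE), adjusted p = 0.000755).

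Markers of macrophages and fibroblasts moved with this set, and their part in it was not tested. The 18 markers of lipid-associated and monocyte-derived macrophages summed to 357 to 583 unscaled CPM in the controls and 660 to 1274 in the high-fat libraries. Of these 18, 5 were called higher and 1 lower (27.78% and 5.56%, beside 6.95% and 5.01% of all tested genes). Their counts with a library left out are not given. The list shares a called gene with the lipid droplet list, so the sum is not of macrophage RNA alone. The 13 resident Kupffer cell markers summed to 704.5 to 932.5 in the controls and 641 to 909 in the high-fat libraries. The 16 stellate cell and fibroblast markers summed to 407 to 473 in the controls and 528 to 765 in the high-fat libraries. No marker of these lists was at 0 in all 9 libraries. The chemokine Ccl2, which recruits monocytes, was at 0.17, 0.305, 0.205 and 0.0571 CPM in the controls and 0.867, 1.18, 2.303, 1.98 and 2.93 CPM in high-fat liver (log2 fold change 3.28 ± 0.68 (SE), adjusted p = 0.00639). Cxcl10 rose 3.94-fold (log2 fold change 1.98 ± 0.40 (SE), adjusted p = 0.00488), and Il1rn, the interleukin-1 receptor antagonist, rose 11.7-fold, from 0.343 to 0.871 CPM in the controls to 4.104 to 10.05 CPM in high-fat liver (log2 fold change 3.55 ± 0.59 (SE), adjusted p = 0.00176). Of the 14 genes of MHC class II presentation none was called, with 1 at an unadjusted p under 0.05, 9 by voom and 0 by DESeq2. Their median log2 fold change was 0.82, and in 8 of the 14 every high-fat library lay above every control, beside 9.45% of all tested genes.

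Of 65 matrix genes, 17 were higher and 1 lower, a higher count that was 9 without control replicate 4, 10 leaving out control replicate 5 or high-fat replicates 2 or 3 and 11 without high-fat replicate 4. Lamb3, a laminin chain of basement membranes, rose, with 1.697 to 2.398 CPM in the controls and 7.23 to 13.8 CPM in high-fat liver (log2 fold change 2.31 ± 0.37 (SE), adjusted p = 0.00122). Postn, periostin, rose, with 6.25 to 8.35 CPM in the controls and 12.4 to 25.8 CPM in high-fat liver (log2 fold change 1.63 ± 0.30 (SE), adjusted p = 0.00302), and Loxl2, a collagen cross-linking oxidase, rose 2.69-fold (log2 fold change 1.43 ± 0.30 (SE), adjusted p = 0.00674). Reck (ENSMUSG00000028476), a membrane-anchored inhibitor of matrix metalloproteinases, was at 6.56, 14.2, 12.7 and 14.3 CPM in the controls and 3.47, 4.38, 2.49, 2.35 and 1.84 CPM in high-fat liver. Control replicate 2 was the lowest control and still above every high-fat library (4.12-fold lower, log2 fold change -2.04 ± 0.26 (SE), adjusted p = 0.000248). Cdh1, E-cadherin, fell, with 27.6 to 47.1 CPM in the controls and 11.6 to 19.4 CPM in high-fat liver (log2 fold change -1.36 ± 0.19 (SE), adjusted p = 0.000383), and the adhesion molecule Cadm4 fell, with 14.7 to 25.3 CPM in the controls and 1.01 to 5.49 CPM in high-fat liver (log2 fold change -3.03 ± 0.63 (SE), adjusted p = 0.00798).

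Some cell cycle genes were higher, at low levels. Of 54 tested cell cycle genes 11 were higher and 0 lower, which is 20.37% higher beside 6.95% of all tested genes. The count depended on single libraries and was 4 without control replicates 3 or 4, 5 leaving out control replicate 5 or high-fat replicates 3 or 5, 7 without high-fat replicates 2 or 4 and 17 leaving out high-fat replicate 1. Mcm4, a subunit of the replication helicase, was at 3.68, 3.41, 2.61 and 3.597 CPM in the controls and 5.03, 5.87, 5.97, 6.64 and 5.52 CPM in high-fat liver (log2 fold change 0.81 ± 0.17 (SE), adjusted p = 0.00736). E2f8, a repressor of the E2F family active in polyploid hepatocytes, was at 2.602, 1.73, 1.49 and 1.37 CPM in the controls and 3.29, 5.92, 6.95, 11.7 and 7.41 CPM in high-fat liver (log2 fold change 1.98 ± 0.37 (SE), adjusted p = 0.00324). Jun, an immediate early transcription factor, was at 14.8, 13.03, 20.6 and 19.3 CPM in the controls and 17.7, 45.7, 47.6, 37.4 and 57.9 CPM in high-fat liver. High-fat replicate 1 lay within the control range, and the other 4 lay above it (log2 fold change 1.29 ± 0.25 (SE), adjusted p = 0.00423). The death receptor Fas rose 2.095-fold (log2 fold change 1.07 ± 0.18 (SE), adjusted p = 0.00159).

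The leading decreases outside the secretory pathway came from varied genes. Mpp4, a membrane scaffold protein, was at 6.84, 7.33, 4.46 and 3.597 CPM in the controls and 1.27, 1.18, 0.893, 0.688 and 1.09 CPM in high-fat liver (log2 fold change -2.44 ± 0.26 (SE), adjusted p = 6.5e-05). Srgap3, which regulates the cytoskeleton through Rac, was at 2.32, 2.8, 6.402 and 5.94 CPM in the controls and 0.462, 0.474, 0.752, 0.486 and 0.647 CPM in high-fat liver (log2 fold change -2.93 ± 0.49 (SE), adjusted p = 0.00141). Slc13a2, a citrate and dicarboxylate transporter, fell 7.67-fold (log2 fold change -2.94 ± 0.53 (SE), adjusted p = 0.00257). Pabpc4, a poly(A)-binding protein, showed narrow ranges within each group, at 63.2, 62.4, 59.8 and 53.2 CPM in the controls and 38.04, 35.02, 37.5, 36.8 and 36.5 CPM in high-fat liver (log2 fold change -0.70 ± 0.10 (SE), adjusted p = 0.000418). Serpina3c fell, with 1.03 to 2.55 CPM in the controls and 0.149 to 0.243 CPM in high-fat liver (7.999-fold lower, adjusted p = 0.000673), in a cluster of near-identical genes. Immunoglobulin genes had 5 lower (15.62%, beside 5.01% of all tested genes) and 0 higher of 32. The summed B and plasma cell markers ran from 177 to 291 unscaled CPM in the controls and 83.5 to 264 in the high-fat libraries. The lower immunoglobulin count was 2 without high-fat replicate 2. It was 3 leaving out control replicates 3, 4 or 5 or high-fat replicates 1, 4 or 5. Ighg2b was at 5.37, 6.62, 11.1 and 7.25 CPM in the controls and 2.197, 1.42, 3.81, 1.86 and 0.945 CPM in high-fat liver (log2 fold change -1.88 ± 0.43 (SE), adjusted p = 0.0115).

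By annotated gene type, the shares called were as follows, with no test of their difference. Of 289 tested lincRNA genes 42 were higher and 5 lower (16.3% called), and of 12992 protein-coding genes 910 were higher and 700 lower (12.4%). Of 281 genes annotated as antisense, 22 were higher and 5 lower (9.61%). The library kit marks strand, but the sources used here do not give the strand setting of the counting, and reads of antisense genes and of their partners could be mixed.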

How the data were processed

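Poly(A) RNA of liver was sequenced from strand-marking libraries, per the labels' protocols. The authors deposited whole-number counts of reads per gene, not normalized, per the submitters' processing notes with build GRCm39 and, in no stated role or order, featureCounts 1.6, STAR 2.7.9a, DESeq2 1.36.0 and cutadapt 1.16. The sources used here do not give the annotation release, the strand setting or the handling of multi-mapping reads.

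The counts of 14 libraries (3 diets, control replicate 1 left out) entered one edgeR 4.0.16 model in R 4.3.3, with filterByExpr (minimum count 10, minimum total 15), TMM scaling and a robust quasi-likelihood test of high-fat against control. P-values were adjusted by Benjamini-Hochberg over 14627 genes, and the pipeline was tested on simulated data. The printed SE was derived from the test: the absolute log2 fold change divided by the square root of the quasi-likelihood F value. The ketogenic libraries entered the gene filter, the TMM scaling and the estimate of the spread. Between 16329425 and 25349148 reads per library limit precision most for genes near 1 CPM. Alternatives were RLE factors, library totals, no filter, DESeq2 1.42.0, limma 3.58.1 voom with sample quality weights, the 9 libraries alone, the replicate number as a block, the library number of the titles as a covariate, and each library left out in turn.

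Symbols came from GENCODE M21, used for names only, and covered 98.17% of the tested genes. Promoter windows are those of RefSeq on GRCm38.p6, matched by symbol. Members and gene lists were chosen with earlier results of these data known. Genes named in the text come from a rule: the 12 largest rises and falls among called genes with a mean of at least 1 CPM and no overlap, the 10 smallest adjusted p in each direction, the 12 called genes of highest mean CPM in each direction, up to 4 called members per list and direction, and described members of the lists of chaperones, liver transcription factors, growth hormone genes and nuclear receptors. The text prints part of them. Some genes covered by the rule are not reported here.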

Additional observations from a re-analysis of the deposited data

Results flagged for a closer look

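Of 272 groups of values examined for the printed genes, 13 held a library far from the others of its group by Dixon's criterion, and chance alone gives about 1 in 20 groups. High-fat replicate 1 was that library for F7 at 120.1 CPM, Igfbp2 at 341.4 CPM, Mgat2 at 59.54 CPM, Postn at 12.37 CPM, Slc13a2 at 1.098 CPM and Tram1 at 103.8 CPM, in each case on the side of the controls. High-fat replicate 5 stood apart for the metallothioneins Mt1 at 102.2 CPM and Mt2 at 56.25 CPM. Among the controls, replicate 3 stood apart for Crot at 195.5 CPM, replicate 5 for Cyp2c39 at 1.028 CPM and replicate 2 for Ppara at 57.12 CPM. Pdia2 stood apart in control replicate 2 at 7.409 CPM and in high-fat replicate 1 at 3.064 CPM, the libraries with the highest acinar marker sums of their groups.

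Of the summed cell type markers, control replicate 2 stood apart from the other controls in pancreatic acinar markers (2160 unscaled CPM), neutrophil markers (149.8 unscaled CPM) and markers of lipid-associated and monocyte-derived macrophages (583.2 unscaled CPM). B and plasma cell markers stood apart in control replicate 5 (290.7 unscaled CPM) and in high-fat replicate 3 (263.7 unscaled CPM). The left-out control library, replicate 1, held 20480 unscaled CPM of acinar markers, above all 9 libraries compared.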

How the results depend on the processing

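Of the 124 printed genes with a call, 111 kept it in every one of the 17 alternatives that tested them, 11 lost it with a single library left out and 2 only in settings that keep all libraries; none changed direction with a call, and 5 of the 12 printed genes without a call gained one in some alternative. Limma voom with sample quality weights called 4186 genes (2209 higher, 1977 lower), 1094 of them at least 2-fold, and 897 members of the pathway lists, against 1749, 623 and 470 in the reported test. Genes called lower numbered 1105 by DESeq2, 1105 in the 9 libraries alone and 420 with library totals. The 9 libraries alone gave 2518 calls in both directions together. With 1 library left out, the calls ranged from 934 to 2145 (591 to 1187 higher, 343 to 958 lower), those at least 2-fold from 425 to 826, called pathway list members from 278 to 541, genes without overlap from 2545 to 3756 (fewer libraries make overlap rarer), lower secretory genes from 41 to 73, higher secretory genes from 0 to 4, higher fat oxidation genes from 23 to 31 and lower genes with an ERSE from 4 to 10. Of the 69 lower secretory genes, 40 were called in all 9 of these fits. The 4 higher secretory genes became 1 with RLE factors, 1 with no filter, 7 by voom and 0 with the library number as a covariate, and the 10 lower genes with an ERSE became 6 with no filter. Apart from shifts that follow from fewer libraries, the cause was not tested. Deviations of samples with the same replicate number correlated by -0.13, 0.09, 0.06 and -0.04 for numbers 2 to 5. None of the 4 was the highest correlation of its control library. The labels do not state a pairing by number, and low correlations of expression cannot exclude one. With the replicate block, 1380 genes were called (828 higher, 552 lower) and 1 secretory gene was higher. Depth limits genes near 1 CPM, where a library holds few reads.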
